A study of Mus musculus with 12 samples.

Results

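Regulatory T cells labelled as lacking Blimp1 were compared with control regulatory T cells on 6 Illumina mouse arrays, 3 labelled CKO and 3 labelled Ctrl, out of 12 in the series. The members were chosen by the sample titles, which name the cell type, the genotype and a replicate number, and the 12119 genes that met the rule on signal were described. Both populations arose from naive CD4+CD44low T cells of C57BL/6 mice aged 8 to 12 weeks that carried the Foxp3GFP reporter. CKO cells had a conditional deletion of Blimp1, the product of Prdm1, and Ctrl cells did not. The sources used here do not name the promoter or Cre line that drives the deletion. Cells of the 2 genotypes, told apart by an allotype marker, were transferred 1 to 1 into RAG1-/- mice, hosts that lack T and B cells but keep their myeloid cells, and were sorted 6 to 8 weeks later as Foxp3-positive (Treg) or Foxp3-negative (Teff). All 12 samples were pools of spleen, mesenteric lymph node and large intestinal lamina propria, and all had been stimulated in vitro for 4 h with PMA and ionomycin, so no resting cells were measured. In such bulk samples, fewer cells of a type and less RNA per cell cannot be told apart.

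Blimp1 is a zinc finger repressor best known for driving B cells into plasma cells. In T cells it is induced by antigen receptor and cytokine signals, marks effector regulatory cells, particularly in the gut, and is required there for full production of interleukin 10. Bcl6, the repressor that directs follicular helper T cells, and Blimp1 repress each other. Regulatory T cells made outside the thymus depend on the factor Foxp3 and restrain inflammation through secreted cytokines and surface receptors such as CTLA-4.

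Values are log2 intensities as deposited, so a difference of 1 is a 2-fold difference, and array medians lay between 4.66 and 4.68. Correlations between the 6 Treg arrays ran from 0.974 to 0.986. Genes were tested with limma on all 12 arrays, and the threshold was a Benjamini-Hochberg adjusted p of 0.05 over all 12119 genes. Each gene's spread was estimated over Treg and Teff arrays together, so widely spread Teff arrays also raise the p of a Treg difference. Same-numbered CKO and Ctrl arrays deviated together, so a second fit treated them as pairs. Errors of differences are SE, and differences are CKO minus Ctrl. Whether replicates came from separate animals is not stated in the labels, so the p-values cover only the spread between the samples at hand, which may be technical, and 3 arrays a group limit the precision.

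The labels were first set against the targeted gene and the sorting marker. Prdm1 was at 5.19, 6.07 and 6.03 on Ctrl Treg arrays 1, 2 and 3 and at 9.16, 8.47 and 9.48 on CKO Treg arrays 1, 2 and 3. The arrays labelled CKO were the high ones in each pair. The difference was 3.27 ± 0.38 (limma adjusted p = 0.00953, and 0.00104 with pairs, 0.0870 without CKO Treg 1). The sources used here do not place the probe inside or outside the deleted part, so this signal is no check of the genotype labels, and every direction is that of the arrays labelled CKO. Foxp3 was at 8.94, 7.83 and 7.29 on the Ctrl Treg arrays and at 8.80, 7.50 and 7.85 on the CKO Treg arrays, while the 6 Teff arrays lay between 4.42 and 4.85. On its brightest probe Foxp3 thus stood above Teff on every Treg array, and the genotypes overlapped (difference 0.03, 95% interval −0.86 to 0.92). The sign of this difference turned in 5 alternative settings. A second kept Foxp3 probe ran from 5.14 to 6.40 on the Treg arrays (−0.55 in Treg), but was at 6.76 and 7.35 on CKO Teff arrays 1 and 2. The remaining kept Foxp3 probes had Treg means from 4.48 to 4.88, near the array medians. The check of the sorting marker thus rests on 1 probe.

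Without pairs, 12 genes passed, 0.0990% of those tested, with 5 higher (0.0413%) and 7 lower (0.0578%) in CKO Treg. The largest fall was in Il10, which encodes the suppressive cytokine interleukin 10. Ncmap, a membrane protein known from myelinating cells, Gpr83, an orphan receptor of regulatory T cells, Izumo1r, which encodes folate receptor 4, and the kyphoscoliosis peptidase gene Ky fell as well. The rises were in Prdm1, in the repressor gene Bcl6, in the hexose transporter gene Slc2a6, in Hif1a, the oxygen-regulated factor that induces glycolytic genes, and in the glycolytic enzyme gene Pgam1. CKO and Ctrl arrays did not overlap for any of these genes, as was the case for 12.3% of all genes (5.96% higher and 6.36% lower in CKO). At least 2-fold differences were found for 9 of the 12 and for 1.34% of all genes, and 646 genes (5.33%) had an unadjusted p under 0.05.

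Il10 was at 12.53, 11.62 and 12.52 on Ctrl arrays 1, 2 and 3 and at 7.17, 6.85 and 6.94 on the CKO arrays. The highest CKO array lay 4.46 below the lowest Ctrl array. The fall was 5.24 ± 0.49 on the log2 scale, that is 37.8-fold (adjusted p = 0.00241, and 6.46e-06 with pairs). Even so, the CKO arrays stayed above the array medians, so Il10 signal was still detected.

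Ncmap was at 8.74, 7.87 and 7.35 on the Ctrl arrays and at 5.56, 4.86 and 4.94 on the CKO arrays. Array 1 was the high one in both genotypes, and the pairs fell by like amounts (difference −2.86 ± 0.30, adjusted p = 0.00446, and 0.000174 with pairs). Gpr83 was at 7.43, 7.59 and 7.20 on the Ctrl arrays and at 4.96, 5.03 and 5.57 on the CKO arrays (−2.22 ± 0.17, adjusted p = 0.000547). The CKO arrays were close to the array medians. Ky was at 6.10, 6.07 and 5.81 on the Ctrl arrays and at 4.52, 4.25 and 4.33 on the CKO arrays, all 3 of which lay under their array median (−1.63 ± 0.12, adjusted p = 0.000547). Izumo1r was at 6.27, 6.70 and 6.08 against 4.84, 4.80 and 4.98 (−1.48 ± 0.15, adjusted p = 0.00385). Its level in CKO was even, with all 3 arrays just above the medians. Its other kept probes gave smaller differences, −0.13 and −0.48, so the size rests on 1 probe. The probe at −0.13 was near the array medians in both genotypes (4.81 in Ctrl and 4.68 in CKO).

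The smaller falls were in Trp53i11, a gene induced by p53, and Pde4d, a phosphodiesterase that degrades cyclic AMP. Trp53i11 was at 5.89, 5.83 and 5.76 on the Ctrl arrays and at 4.94, 4.998 and 4.68 on the CKO arrays (−0.96 ± 0.14, adjusted p = 0.0373). Pde4d was at 6.27, 6.32 and 6.47 against 5.54, 5.44 and 5.44 (−0.88 ± 0.12, adjusted p = 0.0199). In both genes the arrays of a genotype lay closer together than the genotypes did.

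Among the rises, Slc2a6 was at 6.66, 7.52 and 7.36 on the Ctrl arrays and at 10.08, 10.12 and 9.76 on the CKO arrays (2.80 ± 0.35, adjusted p = 0.0130). Its lowest CKO array lay 2.23 above its highest Ctrl array. Bcl6 was at 6.83, 6.75 and 7.24 on the Ctrl arrays and at 9.002, 8.95 and 8.32 on the CKO arrays (1.82 ± 0.25, adjusted p = 0.0222). Pair 3 showed the smallest rise, from the highest Ctrl array to the lowest CKO array. Hif1a was at 7.41, 6.83 and 7.31 against 8.52, 8.33 and 8.37 (1.23 ± 0.16, adjusted p = 0.0164). Pgam1 was at 8.08, 8.07 and 7.97 against 9.06, 8.92 and 8.75 (0.87 ± 0.11, adjusted p = 0.0130), and its other probe gave 0.64. The genes nearest outside the threshold, named after their values were seen, were Cep85 (0.81, adjusted p = 0.0527) and Ccdc50 (1.16, adjusted p = 0.0539), and both passed with pairs.

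**Figure D1:**
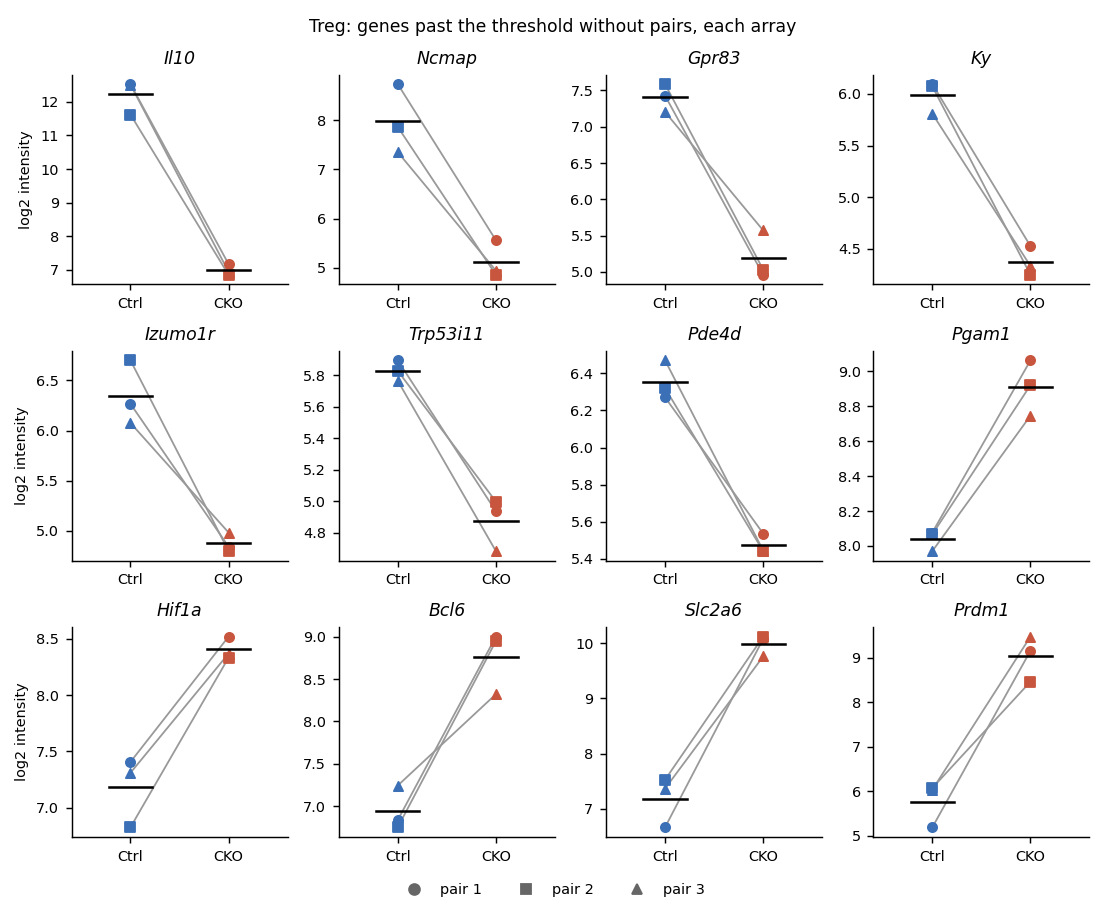
Log2 intensity (vertical axes, a separate range in each panel) of the 12 genes past the threshold without pairs on each Ctrl and CKO Treg array. Symbols mark the replicate number, grey lines join same-numbered arrays and black bars are group means (n = 3). In each panel the CKO and Ctrl arrays do not overlap, with the widest gap, 4.46, in Il10.

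How firmly these calls held differed between genes. Il10, Ncmap and Gpr83 passed in 27 of 27 alternative settings and Ky in 26 of 26. Izumo1r and Prdm1 passed in 26 of 27, Slc2a6 in 24, Hif1a in 22, Bcl6 in 21, Pgam1 in 17, Pde4d in 15 and Trp53i11 in 9 of 26. The count of 12 fell to 5 without CKO Treg 1 and to 6 without CKO Treg 2.

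With same-numbered arrays as pairs, 264 genes passed, 2.18% of those tested, 107 higher (0.883%) and 157 lower (1.30%) in CKO Treg, and all 12 genes above were among them. Of the 264 genes, 116 differed at least 2-fold (49 higher, 67 lower), and the smallest difference past the threshold was 0.52. CKO and Ctrl arrays did not overlap for 224 and overlapped for 40. In 56 of the 264, each of the 3 pairs differed at least 2-fold in the same direction, which held for 64 of all genes tested. The medians of the rises were 1.02, 0.97 and 0.96 in pairs 1, 2 and 3, and those of the falls −0.95, −0.88 and −0.87, values that the choice of genes by the paired fit draws together. The largest difference lay in pair 1 for 112 genes, in pair 2 for 77 and in pair 3 for 75. The count dropped to 30, 58 and 57 when the Treg pair numbered 1, 2 and 3 was left out. Of the 264 genes, 24 passed in each of those 3 fits and 182 passed in none of them. Il10, Ncmap, Gpr83, Ky, Izumo1r, Hif1a, Slc2a6 and Prdm1 were among the 24, as were Cytip, Ecm1, Foxp1, Ercc6l2, Msc and Pdlim1. The 182 held Pde4d and Trp53i11, and many genes named below, such as Sytl2, Snx9, Socs2, Glrx, Isg20, Crtam, Ctla4, Klf2, Cxcr3, Xcl1, Tpi1 and Zfp36.

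Beyond the genes above, the 12 largest rises with pairs and without overlap held Lif, Synpo, Batf3, Msc, Pou2af1, Pdlim1, Ercc6l2, Idi2, Crtam and the chemokine receptor gene Ccr6. Lif, a cytokine of the interleukin 6 family, was at 6.37, 8.13 and 6.32 on the Ctrl arrays and at 10.41, 10.01 and 9.51 on the CKO arrays (3.04, adjusted p = 0.0129 with pairs and 0.473 without). Synpo, an actin-associated protein, was at 6.56, 7.09 and 5.71 against 9.82, 9.21 and 9.43 (3.03, adjusted p = 0.0159 with pairs and 0.0887 without), but its other kept probe gave 0.08. That probe was near the array medians in both genotypes (4.53 in Ctrl and 4.61 in CKO), where a difference can hardly be seen. In both genes the CKO arrays lay closer together than the Ctrl arrays. Batf3, a bZIP transcription factor, was at 4.67, 6.31 and 4.87 against 7.73, 7.89 and 8.54 (2.77, adjusted p = 0.00779 with pairs and 0.0660 without). A second Batf3 probe gave 2.19. Msc, a helix-loop-helix repressor, was at 6.50, 8.23 and 8.08 against 9.62, 10.28 and 9.94 (2.34, adjusted p = 0.00327 with pairs). Pou2af1, a coactivator of Oct factors best known from B cells, was at 6.16, 6.54 and 6.61 against 9.15, 7.93 and 8.63 (2.13, adjusted p = 0.0115 with pairs). For each of these the lowest CKO array was above the highest Ctrl array.

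Pdlim1, a LIM domain protein of the actin cytoskeleton, was at 8.61, 9.01 and 8.30 on the Ctrl arrays and at 10.90, 11.12 and 10.75 on the CKO arrays (2.28, adjusted p = 0.000325 with pairs and 0.0924 without). The rise was nearly the same in each pair. Ercc6l2, a helicase-like protein of DNA repair, was at 6.84, 7.17 and 7.04 against 9.75, 8.88 and 8.96 (2.18, adjusted p = 0.00301 with pairs). Idi2, an isopentenyl diphosphate isomerase, was at 6.63, 7.22 and 6.09 against 9.50, 9.51 and 8.52 (2.53, adjusted p = 0.00527 with pairs). Crtam, an adhesion receptor of activated lymphocytes, was at 6.67, 4.92 and 5.89 against 8.45, 7.04 and 7.63 (1.88, adjusted p = 0.0129 with pairs). Its 3 CKO arrays kept the order of their Ctrl partners.

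Beyond Il10, Ncmap and Gpr83, the 12 largest falls with pairs and without overlap held Il10ra, Sytl2, Snx9, Cytip, Ecm1, Socs2, Glrx, Mmp13 and Isg20. Il10ra, the ligand-binding chain of the interleukin 10 receptor, was at 7.71, 7.11 and 7.52 on the Ctrl arrays and at 5.09, 5.63 and 5.15 on the CKO arrays (−2.16, adjusted p = 0.0168 with pairs and 0.849 without). Receptor gene and ligand gene were thus both lower, and the arrays did not overlap. The standard deviation of Il10ra was 0.31 and 0.30 in Ctrl and CKO Treg, and 1.26 and 2.05 in Ctrl and CKO Teff. Sytl2, a synaptotagmin-like vesicle protein, was at 8.42, 7.57 and 7.56 against 5.63, 5.64 and 5.05 (−2.40, adjusted p = 0.0194 with pairs). Snx9, a sorting nexin of endocytosis, was at 7.82, 6.64 and 6.58 against 5.24, 4.69 and 4.94 (−2.06, adjusted p = 0.0307 with pairs). Cytip, which binds the adhesion regulator cytohesin 1, was at 11.07, 11.43 and 12.12 against 9.15, 9.45 and 10.29 (−1.91, adjusted p = 0.000566 with pairs). Array 3 was the highest in both genotypes, and Cytip fell by 1.92, 1.98 and 1.83 in pairs 1, 2 and 3.

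Ecm1, extracellular matrix protein 1, was at 8.79, 9.26 and 8.22 on the Ctrl arrays and at 6.75, 7.37 and 6.54 on the CKO arrays (−1.87, adjusted p = 0.00118 with pairs). Socs2, an inhibitor of cytokine signalling, was at 10.63, 10.28 and 10.19 against 8.03, 9.01 and 8.46 (−1.86, adjusted p = 0.0346 with pairs). In Socs2 pair 2 fell least. Glrx, the thiol reductase glutaredoxin, was at 12.52, 12.10 and 12.44 against 10.67, 10.48 and 10.50 (−1.80, adjusted p = 0.0137 with pairs). Mmp13, the collagenase matrix metalloproteinase 13, was at 11.13, 10.44 and 11.35 against 9.41, 9.20 and 9.23 (−1.69, adjusted p = 0.00887 with pairs). Glrx and Mmp13 both had even CKO arrays, with the Ctrl array of pair 2 the lowest of the Ctrl arrays. Markers of neutrophils, which host mice also have, were likewise lowest on the arrays of pair 2 and lower in the CKO array of each pair, and their part in these falls was not tested. Isg20, an interferon-induced exonuclease, was at 7.07, 7.25 and 6.72 against 5.37, 5.68 and 4.99 (−1.67, adjusted p = 0.0161 with pairs).

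Other kept probes of these genes did not all give the same size. For Lif they gave 1.48 and 3.03, for Idi2 2.11, for Glrx −1.91 and for Ercc6l2 2.14, 1.12 and 0.77, and each had the sign of the probe used. For Ecm1 the other probe gave −0.48, and for Mmp13 the others gave −0.87 and −0.16, so the size of these 2 falls rests on 1 probe each. Among the genes past the threshold without pairs, another Ky probe gave −1.32 and another Trp53i11 probe −0.10. The Trp53i11 probe at −0.10 was near the array medians in both genotypes (4.66 in Ctrl and 4.56 in CKO).

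**Figure D2:**
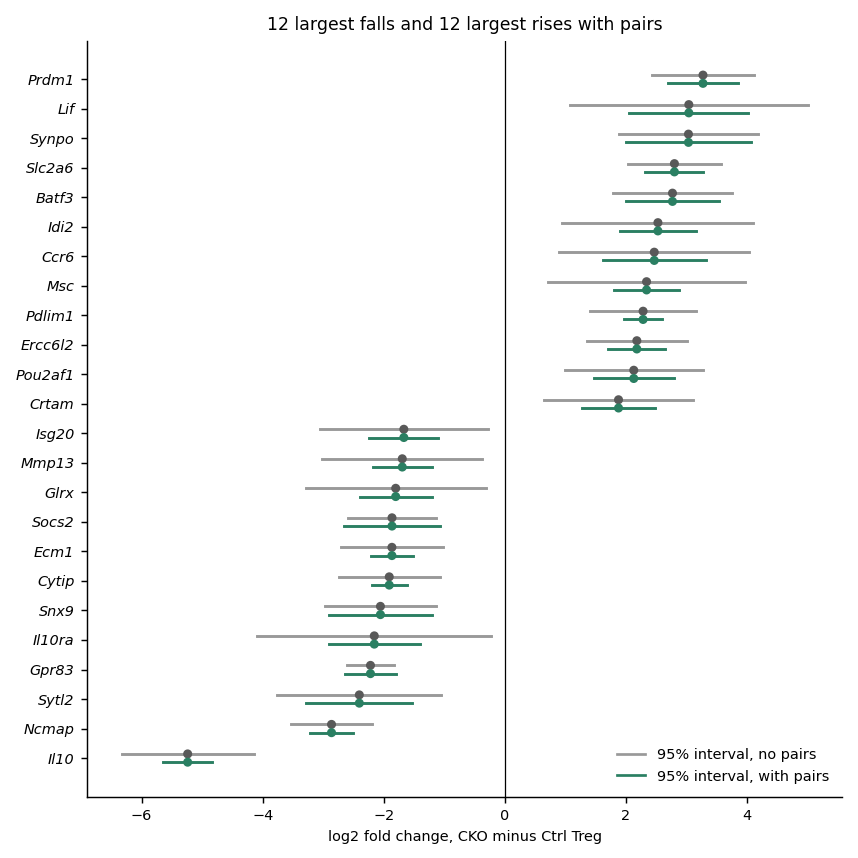
Log2 fold change in Treg, CKO minus Ctrl (horizontal axis), of the 12 largest rises and the 12 largest falls among genes past the threshold with pairs and with no overlap between groups. Points are estimates and bars 95% intervals from the fit without pairs (grey) and with pairs (green), n = 3 arrays a group. Il10 stands farthest from 0 at −5.24, and the intervals with pairs are the narrower except for Gpr83 and Socs2.

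Genes of the regulatory T cell signature mostly had negative differences. Of 23 members tested 18 had a negative difference, the median was −0.59 against 0.00 over all genes, and 15 were lower in each of the 3 pairs, against 18.2% of all genes. With pairs 6 members fell, namely Il10, Gpr83, Socs2, Izumo1r, Tnfrsf18 and Ctla4, and none rose. General T cell markers leaned the same way, though none passed. Of 7 tested 6 were negative and 4 were lower in each pair (57.1%), with a median of −0.37. Over all genes 1.30% fell and 0.883% rose with pairs, and these are the shares to set beside the list counts that follow. Ctla4, the inhibitory receptor that strips costimulatory ligands, was at 13.05, 12.77 and 12.59 on the Ctrl arrays and at 11.79, 11.89 and 11.34 on the CKO arrays (−1.13, adjusted p = 0.0316 with pairs). It stayed among the bright probes in both genotypes, and the groups did not overlap. Tnfrsf18, which encodes GITR, was at 12.09, 12.14 and 11.29 against 10.60, 10.62 and 10.64 (−1.22, adjusted p = 0.0127 with pairs). Ikzf2, which encodes Helios, was at 9.65, 9.72 and 9.03 against 7.66, 8.97 and 7.62 (−1.39, adjusted p = 0.0507 with pairs), just outside the threshold. The interleukin 2 receptor chain gene Il2ra stood at −0.62 (adjusted p = 0.250 with pairs). Foxp3 itself stood at 0.03 on its brightest probe, with −0.14, −0.33 and 0.55 in pairs 1, 2 and 3.

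Among 16 effector and tissue Treg genes Il10 alone fell and Cxcr3 alone rose with pairs. Of these genes 12 had a negative difference and 7 were lower in each pair (43.8%, against 18.2% of all genes), and the median was −0.20. Cxcr3, a receptor for interferon-induced chemokines, was at 10.25, 10.05 and 9.33 on the Ctrl arrays and at 11.14, 10.995 and 10.21 on the CKO arrays (0.90, adjusted p = 0.00968 with pairs). The groups overlapped, but each CKO array lay above its partner by about the same amount. The chemokine receptor gene Ccr8 stood at −0.61 and the costimulatory receptor gene Icos at −0.60, and neither passed.

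Of 21 genes listed as published Blimp1 targets, 5 passed with pairs, where 2.18% of all genes passed. Bcl6, Cxcr5 and Ccr6 rose, and Il10 and Klf2 fell, while the list's median was −0.15. Cxcr5, the receptor that brings cells into B cell follicles, was at 6.11, 6.42 and 6.05 on the Ctrl arrays and at 8.08, 7.31 and 7.33 on the CKO arrays (1.39, adjusted p = 0.0129 with pairs), and its other probes gave 0.30 and 1.14. Ccr6, a receptor of gut-homing and Th17 cells, was at 9.08, 10.91 and 7.80 against 11.77, 12.28 and 11.14 (2.47, adjusted p = 0.0165 with pairs). The Ctrl arrays of Ccr6 were spread widely and the CKO arrays were not, and a second probe gave 2.70. Klf2, a factor of quiescent and recirculating cells, was at 7.25, 6.87 and 6.12 against 6.11, 5.98 and 5.39 (−0.92, adjusted p = 0.0129 with pairs).

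The core letters of the site that Blimp1 binds, GTGAAAG, were sought on both strands in the 250 bases before the gene start, using RefSeq promoters of build GRCm38.p6. They were found in 9 of 209 matched genes past the threshold with pairs (4.31%), against 360 of 9822 genes tested (3.67%) and 1118 of 27025 in the whole table (4.14%), so the share was near the background. The looser GNGAAAG, which includes the former, was found in 49 of 209 (23.4%), against 2264 of 9822 (23.1%). A match describes letters in this window and is not a bound site. Below are the windows of the 3 genes described here that hold GTGAAAG, and that of Slc2a6 as 1 example of the looser match, which Bcl6, Lif, Lta, Zfp36, Ctla4, Trp53i11 and Gbp3 also hold, with the match in capitals and written 5′ to 3′ on the strand of the gene. They are Ccr6 (chr17:8242276-8242525, plus strand), Tnfsf11 (chr14:78308044-78308293, minus strand), Tsc22d3 (chrX:140600523-140600772, minus strand) and Slc2a6 (chr2:27027999-27028248, minus strand). The first 3 hold GTGAAAG, in Ccr6 and Tsc22d3 as its reverse complement CTTTCAC, and Slc2a6 holds GCGAAAG. The match began 216, 91, 68 and 178 bases before the start.
Ccr6: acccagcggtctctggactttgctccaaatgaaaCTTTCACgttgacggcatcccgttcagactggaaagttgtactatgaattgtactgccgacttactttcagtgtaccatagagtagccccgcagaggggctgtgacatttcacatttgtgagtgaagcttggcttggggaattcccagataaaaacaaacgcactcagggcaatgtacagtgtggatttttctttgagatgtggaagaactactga
Tnfsf11: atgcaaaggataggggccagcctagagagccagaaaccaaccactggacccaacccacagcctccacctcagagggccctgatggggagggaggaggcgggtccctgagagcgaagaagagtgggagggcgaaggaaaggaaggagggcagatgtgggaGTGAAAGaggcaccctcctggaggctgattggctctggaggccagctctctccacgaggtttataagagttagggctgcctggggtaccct
Tsc22d3: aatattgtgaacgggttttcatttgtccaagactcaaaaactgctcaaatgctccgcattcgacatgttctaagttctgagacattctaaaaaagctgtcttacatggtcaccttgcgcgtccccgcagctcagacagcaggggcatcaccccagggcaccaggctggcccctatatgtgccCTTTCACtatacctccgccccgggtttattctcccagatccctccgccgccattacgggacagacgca
Slc2a6: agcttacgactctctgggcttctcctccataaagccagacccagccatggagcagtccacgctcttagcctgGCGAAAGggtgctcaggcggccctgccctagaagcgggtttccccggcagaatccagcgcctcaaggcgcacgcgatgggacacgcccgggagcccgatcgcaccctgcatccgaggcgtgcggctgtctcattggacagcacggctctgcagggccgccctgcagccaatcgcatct

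Ccr6, Tnfsf11 and Slc2a6 were higher in CKO Treg and Tsc22d3 was lower, so genes with the match went both ways. Over all genes past the threshold with pairs, GTGAAAG was found for 4 of 84 rises (4.76%) and 5 of 125 falls (4.00%). Tsc22d3, which encodes the glucocorticoid-induced leucine zipper and was named after its values were seen, was at 6.66, 6.53 and 6.34 on the Ctrl arrays and at 5.39, 5.14 and 4.99 on the CKO arrays (−1.34, adjusted p = 0.00350 with pairs), and its other probe gave −0.15. That other probe was near the array medians in both genotypes (4.81 in Ctrl and 4.66 in CKO).

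Lymphocyte transcription factors went both ways. Of 34 tested, 4 rose (Prdm1, Pou2af1, Bcl6 and Tox, the last named after its values were seen) and 2 fell (Klf2 and Satb1) with pairs, with a median of −0.03. Over all genes 0.883% rose and 1.30% fell with pairs. Tox, a nuclear factor of thymic and exhausted T cells, stood at 1.02 (adjusted p = 0.0316 with pairs). Satb1, a chromatin organiser of T cells, was at 10.69, 11.56 and 11.11 on the Ctrl arrays and at 9.76, 11.05 and 10.18 on the CKO arrays (−0.79, adjusted p = 0.0263 with pairs), so the groups overlapped while each pair fell.

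Satb1 and Klf2 are also among 14 naive and central memory genes, of which 3 fell, none rose, and the median was −0.35. The third was Foxp1, a factor that keeps T cells quiescent, at 7.36, 8.02 and 7.71 on the Ctrl arrays and at 5.75, 6.62 and 6.34 on the CKO arrays (−1.46, adjusted p = 0.00118 with pairs). Array 1 was lowest in both genotypes, and each pair fell by more than 1 on the log2 scale.

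In the follicular helper programme, 3 of 12 genes tested rose with pairs (Bcl6, Cxcr5 and Pou2af1) and none fell, with a median of 0.11. Over all genes 0.883% rose with pairs. Il6st, the signalling chain shared by interleukin 6 family receptors, stood at −1.01 (adjusted p = 0.0539 with pairs and 0.849 without). Of 17 Th17 genes 3 rose (Hif1a, Ccr6 and Tnfsf11), where 0.883% of all genes rose, and none fell, with a median of 0.02. Il17f, which encodes interleukin 17F, was at 7.68, 8.12 and 8.34 on the Ctrl arrays and at 10.82, 9.84 and 9.16 on the CKO arrays (1.89, adjusted p = 0.0619 with pairs). The groups did not overlap, but the difference ranged from 0.82 in pair 3 to 3.14 in pair 1, and the gene did not pass. Of 16 Th1 and Th2 genes 2 rose, Cxcr3 and Stat4, with a median of −0.01. Higher in each pair were 5 follicular helper genes (41.7%), 7 Th17 genes (41.2%) and 6 Th1 and Th2 genes (37.5%). Lower in each pair were 2, 1 and 3 genes of these lists. Over all genes 17.5% were higher and 18.2% lower in each pair. Stat4, which carries interleukin 12 signals, was at 8.82, 8.85 and 9.21 against 10.58 and 10.01 on CKO arrays 1 and 3, with CKO array 2 between 9.21 and 10.01 (1.23, adjusted p = 0.0129 with pairs). Its other probes gave 1.31 and 0.06, the latter near the array medians in both genotypes (4.61 in Ctrl and 4.66 in CKO).

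Among 21 T helper cytokine genes Lif, Lta and Tnfsf11 rose and Il10 fell with pairs. Tnfsf11, which encodes RANKL, was at 9.12, 8.92 and 8.60 on the Ctrl arrays and at 10.22, 10.05 and 9.58 on the CKO arrays (1.07, adjusted p = 0.0217 with pairs). Lta, which encodes lymphotoxin alpha, was at 7.80, 8.16 and 8.32 against 9.32, 9.78 and 9.01 (1.28, adjusted p = 0.0170 with pairs). In both genes all CKO arrays were above all Ctrl arrays. Tnfsf14, which encodes LIGHT, stood at 1.07 (adjusted p = 0.0331 with pairs), so that of 24 TNF family genes 3 ligands rose and 1 receptor, Tnfrsf18, fell. The costimulatory receptor gene Tnfrsf4, which encodes OX40 and was named after its values were seen, stood at −0.59 (adjusted p = 0.0537 with pairs and 0.410 without).

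Of 12 chemokine genes 9 had a negative difference, with a median of −0.59, yet the 1 gene that passed with pairs on the probe used rose. Xcl1, which attracts cross-presenting dendritic cells, was at 12.05, 11.85 and 12.82 on the Ctrl arrays and at 14.26, 13.38 and 14.07 on the CKO arrays (1.66, adjusted p = 0.0280 with pairs). Its arrays were bright in both genotypes and did not overlap. Ccl4 and Ccl3, which attract inflammatory cells, stood at −0.87 and −1.36 (adjusted p = 0.0634 and 0.0689 with pairs) and did not pass on the probes used. A second Ccl4 probe stood at −1.66. It was past the threshold with pairs where limma tested every kept probe alone (adjusted p = 0.0208). The list's median was −0.85, 0.03 and −0.66 in pairs 1, 2 and 3, while the mean of 16 neutrophil markers differed by −1.06, −0.25 and −0.61 in the same pairs. Ccl3 was at 13.96, 12.15 and 14.10 on the Ctrl arrays and at 12.33, 11.40 and 12.39 on the CKO arrays, lowest in pair 2 of each genotype, as the neutrophil markers were. The part of neutrophil RNA in the chemokine values was not tested. Of 17 chemokine receptor and homing genes Cxcr3, Cxcr5 and Ccr6 rose and Selplg, which encodes the selectin ligand PSGL-1, fell (−1.25, adjusted p = 0.0316 with pairs).

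Of 25 cytokine receptor genes Il10ra alone passed with pairs, where 1.30% of all genes fell. The list held 20 negative differences, 12 genes lower in each pair (48.0%, against 18.2% of all genes) and a median of −0.19. Of 23 STAT and SOCS genes Stat4 rose, and Socs2 and the cytokine-induced kinase gene Pim1 (−0.83, adjusted p = 0.0397 with pairs) fell. Of 19 inhibitory and costimulatory receptor genes Crtam rose and Ctla4 fell. Cd160, an inhibitory receptor, stood at 1.39 (adjusted p = 0.0699 with pairs and 0.440 without) and did not pass.

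Glycolysis and glucose uptake genes gave the most rises of any list, 6 of 22 tested, and 1 fall with pairs. Over all genes 0.883% rose and 1.30% fell with pairs. The list's median was 0.15, and 11 of its members were higher in each pair against 17.5% of all genes. The rises were in the transporter genes Slc2a6 and Slc2a1, in Pgam1, and in Pfkl, Pfkp and Tpi1, of which Pfkp and Tpi1 were named after their values were seen. Pfkl, a subunit of phosphofructokinase, was at 9.02, 8.71 and 9.18 on the Ctrl arrays and at 10.13, 9.97 and 10.24 on the CKO arrays (1.15, adjusted p = 0.00584 with pairs), but its other probe gave 0.02. Tpi1, which encodes triosephosphate isomerase, was at 11.06, 11.12 and 11.44 against 11.85, 11.83 and 12.68 (0.91, adjusted p = 0.0164 with pairs). The CKO arrays of Pfkl and Tpi1 were all above the Ctrl arrays. Slc2a3, which encodes the glucose transporter GLUT3, went the other way, at 8.99, 9.03 and 9.22 against 7.67, 7.42 and 8.39 (−1.25, adjusted p = 0.0110 with pairs). The core enzyme genes Ldha (0.01), Pkm (0.13) and Gapdh (0.22), also named after their values were seen, did not pass. Of 20 HIF1 pathway genes Hif1a and Slc2a1 (0.54, adjusted p = 0.0437 with pairs) passed, and the median was 0.06.

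Signalling and activation genes mostly had negative differences. Of 30 proximal T cell receptor genes 3 fell with pairs and none rose, with a median of −0.28. They were Grap2, an adaptor that links LAT to SLP-76 (−0.90, adjusted p = 0.0217 with pairs), the NF-kappaB scaffold gene Malt1 (−0.85, adjusted p = 0.0194 with pairs) and Rasgrp1, which activates Ras (−0.73, adjusted p = 0.0180 with pairs). Another Rasgrp1 probe gave 0.08, at 5.23 in Ctrl and 5.32 in CKO. A further Rasgrp1 probe gave −0.06 near the array medians (4.60 in Ctrl and 4.55 in CKO). Of 28 early activation genes 2 fell with pairs, none rose, and 15 were lower in each pair (53.6%, against 18.2% of all genes), with a median of −0.25. Zfp36, which encodes an mRNA-destabilising protein, was at 11.32, 10.81 and 10.79 on the Ctrl arrays and at 9.86, 9.49 and 9.60 on the CKO arrays (−1.32, adjusted p = 0.00876 with pairs). Nfkbia, which encodes the NF-kappaB inhibitor, stood at −0.66 (adjusted p = 0.0362 with pairs). Both are feedback inhibitors that stimulation itself induces.

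Of 31 interferon response genes 2 fell with pairs and none passed without. The list held 26 negative differences, 15 genes lower in each pair (48.4%, against 18.2% of all genes) and a median of −0.30. Isg20 and the guanylate-binding protein gene Gbp3 (−1.11, adjusted p = 0.0273 with pairs) were the falls, and none rose. In Teff the same list had a median of 0.30, and this difference between cell types was not tested. Of 24 p53 target genes 19 were negative and 13 lower in each pair (54.2%, against 18.2% of all genes), with a median of −0.24. Trp53i11, Sesn1, a stress-induced sestrin (−1.04, adjusted p = 0.0316 with pairs, other probes −0.08 and −0.58), and Cdkn1a, the cell cycle inhibitor p21, fell. The Sesn1 probe at −0.08 was near the array medians in both genotypes (4.66 in Ctrl and 4.57 in CKO). Cdkn1a was at 8.84, 8.81 and 8.28 on the Ctrl arrays and at 8.05, 7.79 and 7.42 on the CKO arrays (−0.89, adjusted p = 0.0122 with pairs).

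Of 14 cytotoxic granule genes Rab27a, which docks secretory granules, and Nkg7 fell and Crtam rose with pairs. Rab27a was at 10.22, 10.16 and 10.46 on the Ctrl arrays and at 8.78, 9.24 and 9.36 on the CKO arrays (−1.15, adjusted p = 0.00588 with pairs), and Nkg7 stood at −1.07 (adjusted p = 0.0385 with pairs). Of 22 cyclic AMP genes Pde4d alone passed, and of 20 TGF-beta genes the SMAD repressor gene Ski alone (−0.61, adjusted p = 0.0316 with pairs), where 2.18% of all genes passed.

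In 6 lists no gene passed with pairs. They were 29 cell cycle genes (median 0.09, 25 positive), 39 respiratory chain genes (0.02), 30 unfolded protein response and secretion genes (0.01), 28 amino acid transport and mTORC1 genes (−0.06), 26 survival and death genes (−0.20) and 26 ribosomal protein genes (0.09). The cell cycle median was −0.08, −0.06 and 0.54 in pairs 1, 2 and 3, so pair 3 stood apart. The nearest to the threshold was Mcm3, a subunit of the replicative helicase, at 0.61 (adjusted p = 0.0533 with pairs).

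**Figure D3:**
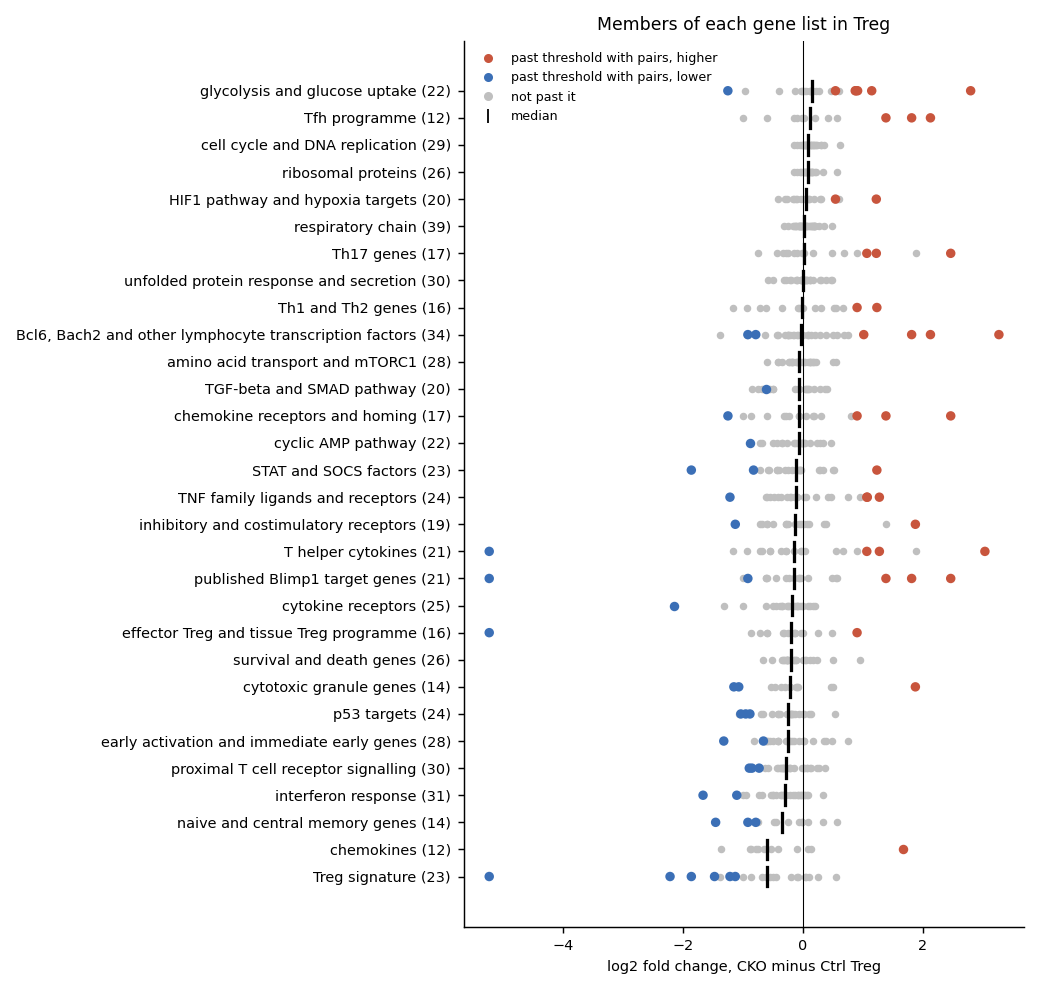
Log2 fold change in Treg, CKO minus Ctrl (horizontal axis), of each member of the gene lists, with the number tested in brackets and the lists, without the marker lists, ordered by their median (black bar). Red and blue points passed the threshold with pairs as higher or lower, and grey points did not. Glycolysis and glucose uptake stands at the top with a median of 0.15, and the Treg signature and the chemokines at the bottom with −0.59.

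The difference between genotypes in Treg was then set against that in Teff, sorted from the same hosts. Over 8 basophil and mast cell markers the median difference was 2.67 in Teff and −0.12 in Treg. Over 9 CD8 T and NK cell markers it was 1.00 in Teff and −0.12 in Treg. Mcpt8 was at 5.02, 5.59 and 4.54 on the Ctrl Teff arrays and at 10.85, 10.18 and 5.12 on the CKO Teff arrays. The part of such transcripts in the Teff differences and in the comparison with Treg was not tested. Of 107 genes that rose in Treg with pairs, 84 (78.5%) had a positive difference in Teff, where 44.2% of all genes were positive. Of the 157 that fell, 120 (76.4%) were negative in Teff, against 55.8% of all genes. The differences were smaller there, with a median of 0.27 for the rises and −0.20 for the falls, against 0.95 and −0.92 in Treg, where these genes had been chosen for a large difference. In Teff 12 genes passed with pairs (0.0990%), and 7 of the 264 were among them. Prdm1, Lif, Synpo, Slc2a6 and Ctla4 had Teff differences of 3.34, 3.04, 2.53, 2.34 and −1.71, against 3.27, 3.04, 3.03, 2.80 and −1.13 in Treg. Of these, Lif (adjusted p = 0.0541 with pairs) and Synpo (0.0782 with pairs) did not pass in Teff.

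The Treg difference minus the Teff difference passed for 2 genes without pairs (0.0165%), Gpr83 and Ky, and for 5 with pairs (0.0413%), namely Il10, Ncmap, Ky, Ecm1 and Pdlim1. At an unadjusted p under 0.05 there were 422 genes without pairs and 1382 with pairs. Gpr83 differed by −2.22 in Treg and −0.15 in Teff, so the difference of differences was −2.07 ± 0.24 (limma adjusted p = 0.0308, and 0.0556 with pairs). Ky differed by −1.63 and −0.09 (−1.54 ± 0.17, adjusted p = 0.0308, and 0.0259 with pairs). Both were at background in Teff of either genotype, with Gpr83 at 4.41 to 4.81 and Ky at 4.32 to 4.62 on the 6 Teff arrays, so that a fall could not have been seen there. The same held for Ncmap, at 4.45 to 4.75 on the Teff arrays (−2.79, adjusted p = 0.150, and 0.00776 with pairs).

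Il10 fell in Teff as well, from 12.46, 12.27 and 11.12 on the Ctrl Teff arrays to 10.31, 9.81 and 8.35 on the CKO Teff arrays. The fall was 2.46 there and 5.24 in Treg, and the difference of −2.78 passed with pairs (adjusted p = 0.0124) but not without (1.00). CKO Treg arrays ended below every CKO Teff array. Ecm1 fell by 1.87 in Treg and stood at 0.14 in Teff, where Ctrl arrays were at 7.54, 7.33 and 6.83 and so lower than in Ctrl Treg (−2.001, adjusted p = 0.0259 with pairs and 1.00 without). Pdlim1 rose by 2.28 in Treg and by 0.59 in Teff (1.69, adjusted p = 0.0384 with pairs and 1.00 without). No other gene passed this test.

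**Figure D4:**
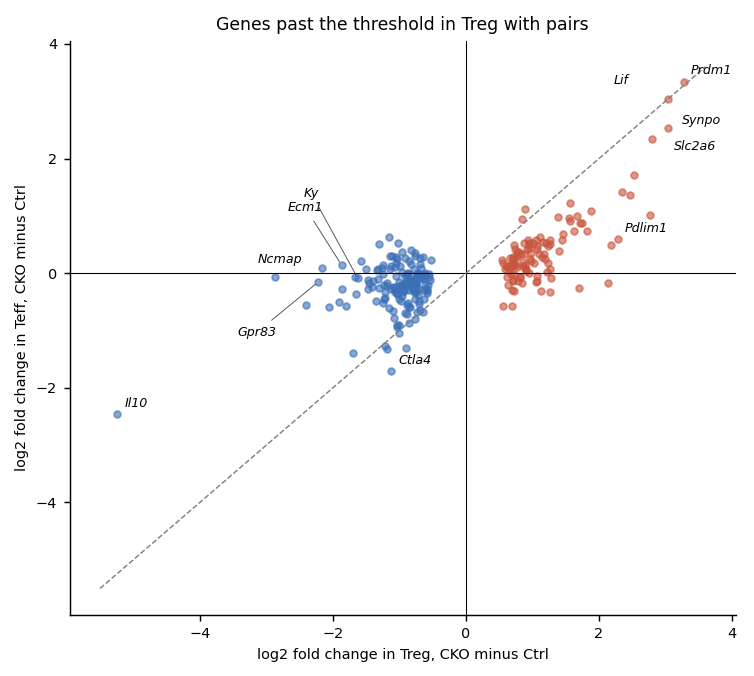
Log2 fold change, CKO minus Ctrl, in Treg (horizontal axis) and in Teff (vertical axis) of the 264 genes past the threshold in Treg with pairs. Red points rose and blue points fell in Treg, the dashed line marks equal differences, and each value rests on 3 arrays a group. Most points lie between the horizontal axis and the dashed line, and Ctla4 lies farther from 0 in Teff (−1.71) than in Treg (−1.13).

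Markers of other cells were read on the same arrays. The mean log2 intensity of 16 neutrophil markers was 9.12, 6.15 and 8.89 on the Ctrl Treg arrays and 8.06, 5.89 and 8.28 on the CKO Treg arrays, differences of −1.06, −0.25 and −0.61 in pairs 1, 2 and 3. All 16 exceeded the array median on at least 1 Treg array, the log2 of their summed signal ran from 11.63 to 15.25 in Ctrl and from 11.16 to 14.70 in CKO, and 14 of the 16 had a negative difference (median −0.71). None passed with or without pairs. The part of neutrophil RNA in any gene's difference was not tested.

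Among 17 markers of monocytes, macrophages and dendritic cells, 13 exceeded the array median on at least 1 Treg array. Itgax, Xcr1, Siglech and Ccr2 were under the median on every Treg array. Lyz1 ran from 7.97 to 11.85 on the Treg arrays, Lyz2 from 5.51 to 9.41 and Cd14 from 5.25 to 10.41. These 3 were lowest in pair 2 of each genotype, as the neutrophil markers were. The antigen presentation genes Cd74, H2-Aa, H2-Ab1 and H2-Eb1 stood at 0.68, 1.17, 0.95 and 0.92 and did not pass. These 4, of 11 members tested, were higher in the CKO array of each pair (36.4%, against 17.5% of all genes). In the same list 1 member was lower in each pair. The summed signal ran from 11.81 to 13.17 in Ctrl and from 12.04 to 12.77 in CKO. B cell and plasma cell markers were near the array medians, with means from 4.58 to 4.68 on the Treg arrays, although the B cell coactivator gene Pou2af1 rose. Cd8a and Ncr1, of CD8 T cells and NK cells, and 4 of 13 basophil and mast cell markers (Mcpt4, Mcpt1, Ms4a2 and Tpsb2) were also under every Treg array's median. The other 9 of 11 CD8 T and NK cell markers and 9 of 13 basophil and mast cell markers exceeded the median on at least 1 Treg array. On the Treg arrays Cd8b1 ran from 9.12 to 10.02, Hdc from 6.45 to 10.20, Kit from 6.17 to 7.94 and Prss34 from 4.74 to 7.86.

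The mean of 7 T cell markers was 10.46, 10.12 and 10.13 on the Ctrl arrays and 9.94, 10.04 and 9.68 on the CKO arrays, and that of 6 Treg markers was 10.22, 10.26 and 9.69 against 9.35, 9.55 and 9.24. The mean of the T cell markers was thus also lower in the CKO array of each pair, though no T cell marker passed. The Treg markers of both genotypes stood above those of the Teff arrays, which ran from 7.29 to 8.10.

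**Figure D5:**
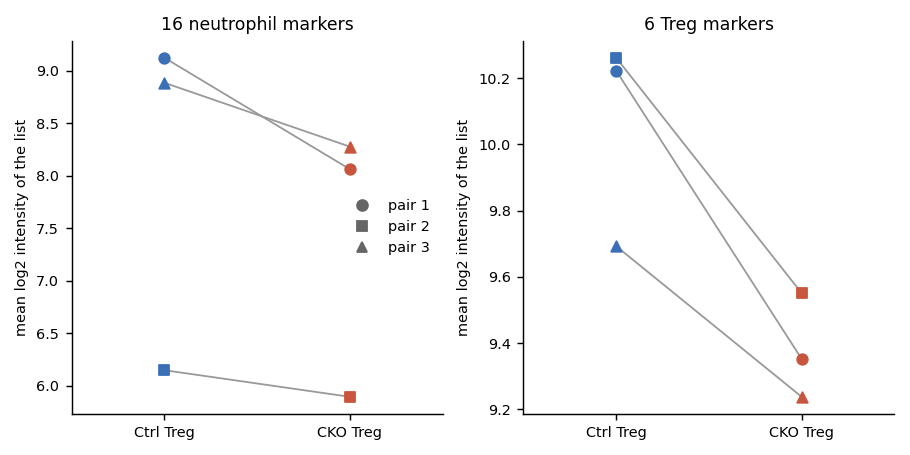
Mean log2 intensity (vertical axes, a separate range in each panel) of 16 neutrophil markers and of 6 Treg markers on each Ctrl and CKO Treg array. Symbols mark the replicate number and grey lines join same-numbered arrays. The neutrophil level is lowest in pair 2, at 6.15 and 5.89, and both lists are lower in the CKO array of each pair.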

How the data were processed

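Total RNA of 12 samples was hybridised to 1 Illumina array each, after Qiagen RNeasy extraction and biotin labelling by Ambion MessageAmp, per the labels. The authors deposited a log2 intensity for each probe. GenomeStudio and limma 3.30.11 are named in the submitters' processing notes, and the sources used here do not give the background correction or the normalization. Genes were named from the platform annotation: of 31641 probes 28197 had 1 symbol (28180 matched to RefSeq by gene ID), 5 several and 3439 none, and the last 2 kinds were left out. Kept probes (17579) lay above the array median on at least 3 of 12 arrays. Each gene was represented by its probe with the highest mean, and 3764 of 12119 genes had several. Of 156 other probes of the 264 genes past the threshold with pairs, 8 had the opposite sign.

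Tests used limma 3.58.1 in R 4.3.3 (statmod 1.5.0, data.table version 1.17.8), with lmFit and eBayes, 4 group means and all 12 arrays, two-sided. The pairing comes from the replicate numbers in the titles. Residuals of same-numbered CKO and Ctrl Treg arrays correlated at 0.545, 0.519 and 0.589 across genes, so pairs were fitted as a fixed term within each cell type. Those of other numbers correlated at −0.327 to −0.242. Residuals from a group mean cancel out within the group, so these negative values follow from the positive ones and are no separate support. The pipeline was tested on simulated data.

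Gene lists (39, with 626 of 808 members tested) were described by counts and medians, with no set test. Named genes were Prdm1 and Foxp3, all genes past the threshold without pairs, the 12 largest rises and falls with pairs and without overlap, and up to 4 members per list with the smallest p with pairs. Other genes are said to be named after their values were seen, except those of a count given in full and marker genes. The members and lists were chosen with earlier results of these data known. Alternatives were other normalizations, filters, probe choices, variance models, array weights, array sets, blocks and each array left out.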

Additional observations from a re-analysis of the deposited data

Results flagged for a closer look

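Between cell types, the genotype difference (CKO minus Ctrl) differed past the threshold, without or with pairs, for 6 genes, given here as the Treg difference minus the Teff difference on the log2 scale. They were Il10 at −2.78 (limma adjusted p = 1.00, and 0.0124 with pairs), Ncmap at −2.79 (0.150, and 0.00776 with pairs), Gpr83 at −2.07 (0.0308, and 0.0556 with pairs), Ky at −1.54 (0.0308, and 0.0259 with pairs), Ecm1 at −2.001 (1.00, and 0.0259 with pairs) and Pdlim1 at 1.69 (1.00, and 0.0384 with pairs). Il10 fell in 3 of 3 pairs of each cell type. For Ncmap, Gpr83 and Ky the Teff arrays were at background in both genotypes.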

How the results depend on the processing

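The 12 genes past the threshold in Treg became 264 with the replicate block, 155 with it as a random term (134 of them among the 264), 25 with only the 6 Treg arrays, 348 with those and the block (228 of them among the 264) and 34 with array weights. With the block they became 30, 58 and 57 without replicate 1, 2 and 3 of Treg, and without the block 5 to 17 when 1 array was left out. Quantile normalization, median centring, other filters, other probe choices and trend and robust settings gave 11 to 15, the 15 being single probes, of 14 genes. The 2 genes of the interaction became 5 with the replicate block, 6 with it as a random term, 0 with the 75th percentile filter, 4 with trend and robust settings and 0 to 22 when 1 array was left out (22 without CKO Teff 3). With the block they became 0 and 4 without replicate 1 and 2 of Treg. Where an alternative changed a count, the cause was not tested. The Foxp3 difference in Treg turned to −0.045 with the mean of its probes, to −0.07, −0.34 and −0.35 without Ctrl Treg 2, Ctrl Treg 3 or CKO Treg 1 (range −0.35 to 0.49 with 1 array left out), and to −0.24 with the block without replicate 3 of Treg. Over the named genes, 1717 values under alternatives kept direction and side of the threshold, 219 newly passed it, 55 lost it and 5, all of Foxp3, reversed. Of the list medians 983 moved by less than the spread between pairs and 69 by more. Low signal limits what can be seen for Ky and Gpr83 in CKO Treg, which were near the array medians.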

Other observations

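Of 1817 kept probes without a gene name, 0 passed in Treg by limma without pairs (84 at an unadjusted p under 0.05) and 14 passed with pairs. Of the 264 genes past the threshold with pairs 16 (6.06%) lie on the chromosome that carries Prdm1, as do 4.89% of all genes tested.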
